A study of Mus musculus with 24 samples.

Results

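The liver of 10-week-old mice was compared with the lung, the kidney and WAT (white adipose tissue) of mice of the same age. All samples came from male mice of the strain C57BL/6J, with no allele or agent named in the labels, and each group held 3 samples. The members were taken by their labels: the 3 arrays labelled Liver at 10W stood against the 9 arrays labelled Lung, Kidney and WAT at 10W, out of 24 arrays that also cover the same tissues at 90W. Agilent mouse arrays of 62976 spots measured the RNA of each sample in 1 colour. The labels number the samples and do not say that each came from an animal of its own, or whether 1 mouse gave several tissues, so the p-values measure the spread between these samples, which may be technical. Tissue samples were homogenized with no sorting of cells named, and every liver value is therefore a mixture of hepatocytes, bile duct cells, vessels and blood cells. In such samples fewer cells of a type and less RNA per cell cannot be told apart.

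The hepatocyte makes most of the proteins of the blood plasma, among them albumin, the clotting factors and the complement components, and it packs lipid into lipoproteins. It disposes of ammonia through the urea cycle, releases glucose in fasting, turns cholesterol into bile acids and oxidizes and conjugates foreign compounds. Its identity is held by a network of transcription factors (the HNF4, FOXA, CEBP and ONECUT families among them), and its tasks are divided along the lobule between the portal vein, where urea and glucose are made, and the central vein, where glutamine is made and many cytochromes P450 are found. Kupffer cells (the resident macrophages), sinusoidal endothelial cells, stellate cells (which store vitamin A) and cholangiocytes (which line the bile ducts) make up most of the remainder.

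A level is given here as the log2 of the background-subtracted signal of a gene's brightest probe minus the 75th percentile of its array, so that 0 stands for the 75th percentile. Probes differ in how strongly they bind, so that a level is compared between tissues and never between genes. Differences are in log2 units with their standard error, and levels are means ± SD over 3 arrays. A feature (a gene, or a target of the array without a symbol) was called when limma's adjusted p was under 0.05 and the difference was at least 4-fold. Where a gene was dim in a tissue (well above background on none of its arrays), the difference is given as at least N-fold, with that tissue counted at the lowest signal above background or at its own signal if that was higher. Each tissue was hybridized on a slide of its own, so slide and tissue cannot be told apart, and only large differences were ranked.

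On the liver arrays the 75th percentile of the signal lay between 369 and 440 fluorescence units, and on the other arrays between 660 and 1286. The brightest 1% of spots held 36.9% to 39.7% of the summed signal in liver and 26.8% to 30.2% elsewhere, and 58.6% to 69.8% of the probes of an array were well above background, with no spot saturated. Arrays of a tissue correlated at 0.986 or more in liver, lung and kidney, whereas WAT arrays correlated between 0.929 and 0.987. WAT replicate 3 read higher for hepatocyte markers: the median level of 12 was -1.61 there, against -2.73 and -4.65 in replicates 1 and 2. The highest of the 3 values belonged to replicate 3 for 9 of the 12. A wider set, the 804 genes with a symbol called higher in liver than in each tissue, showed little of this. Its median was -2.885 in WAT replicate 3, against -2.962 and -3.481, and replicate 3 was highest for 263 of the 804. The neutrophil markers of WAT replicate 3 stood at a median of 1.86, against -1.30 and -0.34. WAT replicate 1 held genes of the epididymis, with a median level of 7.12 for 10 genes chosen after their values were seen, against -6.12 and -4.98 in the other WAT arrays. Lung replicate 2 also read higher for the 12 hepatocyte markers, with a median of -2.53 against -5.30 and -5.09. Over the 804 genes its median was -2.855, against -3.135 and -3.09. Without WAT replicate 3 the features higher than each tissue numbered 1302 and without lung replicate 2 they numbered 1304. Without WAT replicates 1 and 3, a choice made after seeing the data that leaves a lone WAT array whose spread is assumed to be that of the other tissues, 1250 of the 1307 features higher in liver than in each tissue were still called (95.6%), and 900 of the 980 lower ones (91.8%).

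Of 33274 features tested, 2573 (7.73%) were higher in liver than in the mean of the other tissues, and 2893 (8.69%) were lower. Against lung 4076 (12.2%) were higher and 4253 (12.8%) lower, against kidney 2420 (7.27%) and 2715 (8.16%), and against WAT 3204 (9.63%) and 3351 (10.1%). Higher than each of the 3 tissues were 1307 features (3.93%), of which 804 have a symbol, and lower than each were 980 (2.95%), of which 796 have one. Without a test, all 3 liver arrays exceeded all 9 others for 7546 features (22.7%) and lay below them for 4181 (12.6%). The median difference over all features was 0.23, and it was -0.49 with a scaling to the spike-in controls, 0.04 after quantile normalization and 0.46 with another background correction (normexp). With the spike-in scaling the calls against the mean became 1645 higher and 4981 lower, and those against each tissue 866 and 1596, so the balance between higher and lower features depends on the scaling. Kidney was the next highest tissue for 545 of the 1307 features (41.7%), WAT for 486 (37.2%) and lung for 276 (21.1%). That order was taken from measured means, also where a tissue was dim (339 features in lung, 338 in kidney and 289 in WAT). For features dim in all 3 it ranks background signal only. Of the 804 genes with a symbol, 304 exceeded the next tissue at least 16-fold, 182 at least 64-fold, 107 at least 256-fold and 57 at least 1024-fold, counting a tissue in which a gene was dim at the lowest signal above background. Of the 1307 features, 182 were well above background on no array outside the liver. These passed the filter, which asks for 3 of 12 arrays, through the liver arrays alone. Their higher liver value was thus largely set by the filter. With every dim tissue set at its bound, 1234 of the 1307 higher features (94.4%) and 736 of the 980 lower ones (75.1%) were still 4-fold apart from each tissue.

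The 15 genes with the largest gap between liver and the next tissue belonged to a few families. They were the cytochromes P450 Cyp2c54, Cyp2c50, Cyp3a25, Cyp3a57, Cyp3a16, Cyp3a59 and Cyp2a12, the carboxylesterases Ces1c and Ces3b, the glucuronosyltransferase Ugt2b1, the urinary pheromone carrier Mup6, the apolipoproteins Apof, Apoa1 and Apoa5, and the clotting factor F12. Apof, which modulates the exchange of cholesteryl esters between lipoproteins, stood at 7.58, 7.68 and 7.53 in liver, -7.95, -8.05 and -7.13 in lung, -7.72, -7.30 and -7.52 in kidney and -6.61, -6.68 and -4.36 in WAT. No lung or kidney array had it well above background, and liver was at least 11021-fold above lung and 8391-fold above kidney. F12, which starts the contact pathway of clotting, stood at 6.94, 7.03 and 6.95 in liver and at -6.41 ± 0.34 in lung, -6.42 ± 0.91 in kidney and -5.78 ± 0.99 in WAT. Apoa5, which raises the clearance of triglycerides from plasma, was 12.75 above WAT, the next tissue (adjusted p = 3.55e-07). Cyp2c54, Cyp2c50, the Cyp3a genes, Mup6, Ces1c, Ces3b and Ugt2b1 have close paralogs whose transcripts can bind the same probe, so their values are uncertain as those of a single gene.

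Hepatocyte markers, used to check the label, were all above their levels in the other tissues. All 12 were higher than the mean and 9 higher than each tissue, and every liver array exceeded the 9 other arrays for 12. Hnf4a and Cyp2e1 were among those not 4-fold above each tissue. Alb, which encodes albumin, read 9.40, 9.34 and 9.31 in the livers, -3.08, -0.53 and -2.81 in the lungs, -0.03, -0.049 and -0.004 in the kidneys and 1.57, 2.71 and 3.09 in WAT. The 3 livers were close to each other and far above the rest, while lung replicate 2 and WAT replicate 3 were the highest of their tissues. The difference was 9.38 ± 0.59 from kidney (adjusted p = 4.65e-07) and 6.89 ± 0.59 from WAT (adjusted p = 3.48e-06).

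**Figure D1:**
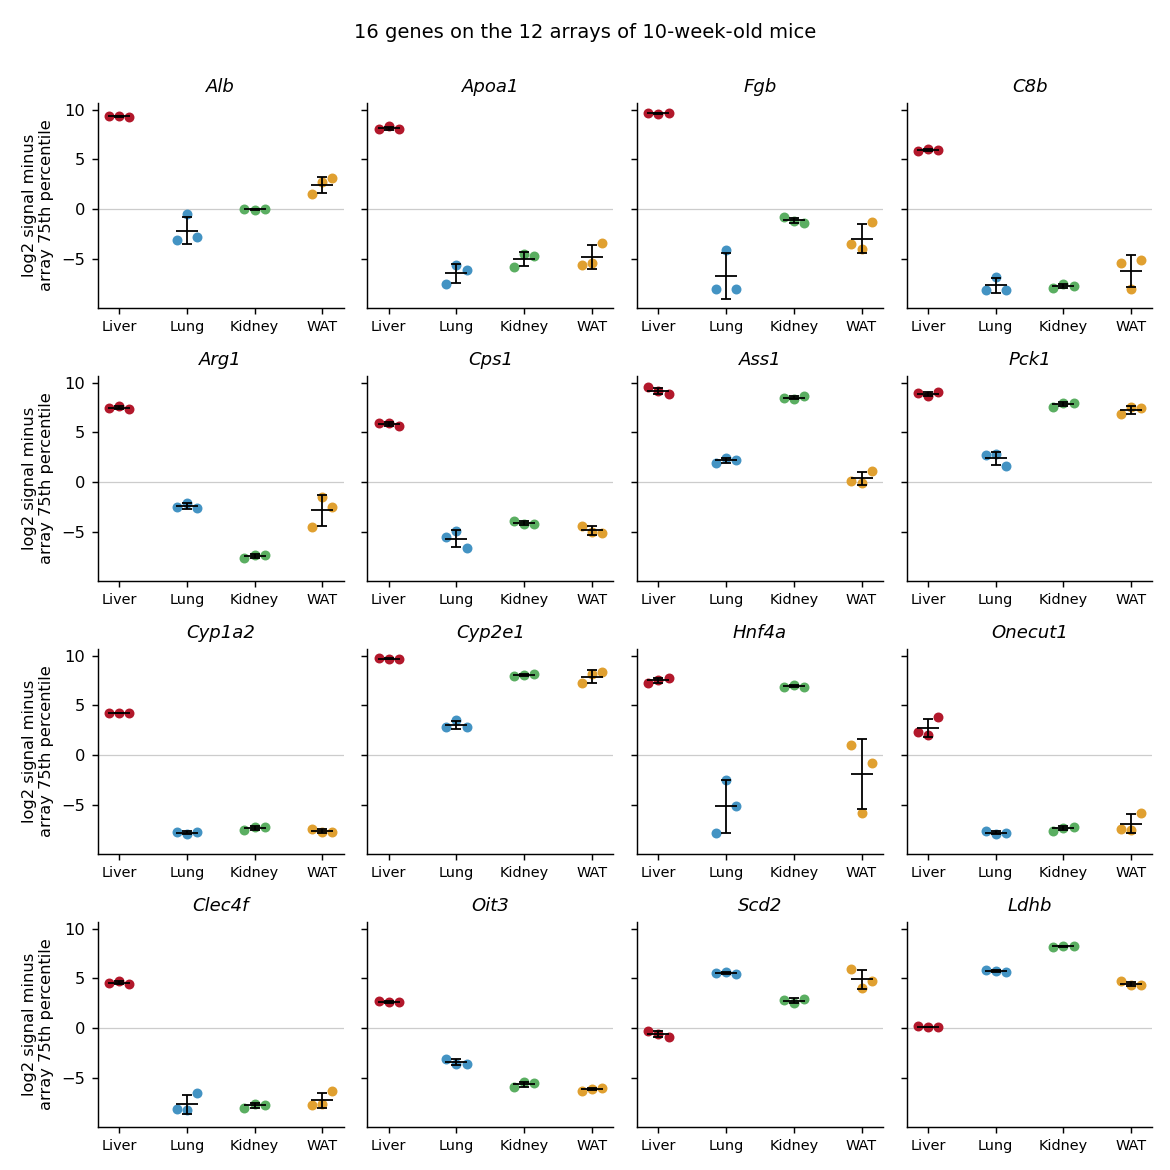
Levels of 16 genes on the 12 arrays at 10 weeks, as log2 signal minus the array's 75th percentile, with a point for each array, the tissue mean and bars of 1 SD (n = 3). Alb, Apoa1, Fgb, C8b, Arg1, Cps1, Cyp1a2, Onecut1, Clec4f and Oit3 stand above 0 in liver only, or far above the other tissues, Ass1 and Hnf4a stand almost as high in kidney as in liver, and Scd2 and Ldhb are lowest in liver. Each gene is compared between tissues only.

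Carrier proteins of plasma were almost all higher in liver. Of 20 tested, 19 were higher than the mean and 18 higher than each tissue, with a median difference of 8.62 beside 0.23 over all features. That of Ambp, the precursor of alpha-1-microglobulin and bikunin, was 12.73 ± 0.55. Hpx, which binds free heme, differed by 12.67 ± 0.40, and Serpina6, the cortisol carrier, which no kidney array had above background, was at least 3615-fold above the mean. Hp, which binds free haemoglobin, passed against the mean (4.80 ± 0.28) but not against each tissue, since it read 7.77, 7.64 and 7.72 in lung and 7.92, 8.68 and 8.65 in WAT beside 9.04, 9.20 and 9.59 in liver. It was 11.97 above kidney. Every liver array was above every other, but lung and WAT came close, whereas the kidney arrays lay far below. Shbg, the carrier of sex steroids, was the only uncalled member, and no liver array had it well above background.

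Lipoprotein genes followed the same pattern. Of 21, 20 were higher than the mean and 16 higher than each tissue (median 8.20, or 7.68 with genes that are dim elsewhere set at their bounds). Apoa1, the main protein of high-density lipoprotein, stood at 8.10, 8.33 and 8.04 in liver, against -7.51, -5.63 and -6.15 in lung, -5.80, -4.54 and -4.67 in kidney and -5.62, -5.41 and -3.39 in WAT. No lung array had it well above background, so that liver was at least 15165-fold higher. Against kidney the difference was 13.16 ± 0.63 (adjusted p = 5.98e-08). Lipc, hepatic lipase, was above background in liver alone and at least 205-fold, 156-fold and 178-fold above lung, kidney and WAT. Apoe was higher than the mean by 3.29 ± 0.12 but only 1.89 above WAT. Pltp, which transfers phospholipid between lipoproteins, was not called against the mean, and its level in lung (5.44 ± 0.14) exceeded that in liver (2.32 ± 0.52).

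Clotting factor genes were largely higher in liver as well. Of 22 genes, 21 were higher than the mean and 18 higher than each tissue (median 8.82). Fgb, the beta chain of fibrinogen, stood at 9.68, 9.57 and 9.65 in liver, -8.01, -4.06 and -8.0 in lung, -0.81, -1.16 and -1.38 in kidney and -3.52, -4.04 and -1.29 in WAT. The lung values split, with replicate 2 above the other lungs, and all lay far below the livers. F9, the factor missing in haemophilia B, was at least 1866-fold above kidney and 2130-fold above WAT. Pros1, the cofactor of protein C, was the exception, at 4.23 ± 0.23 in liver and 3.91 ± 0.073 in lung, and was not called against the mean (1.30 ± 0.21). F13b, Serpinf2 and Proc passed against the mean but not against kidney, where F13b read 3.70, 3.85 and 3.67 beside 4.49, 4.42 and 4.16 in liver.

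Protease inhibitors and complement showed no lower member. All 17 tested inhibitors were higher than the mean and 14 higher than each tissue (median 8.17). Serpina3k, an inhibitor of kallikrein, was at least 3851-fold above the mean, and Serping1, which inhibits the complement protease C1, had the narrowest difference, at 3.04 ± 0.25. Spp2 stood at 5.32 ± 0.11 in kidney and 4.86 ± 0.15 in liver. The Serpina1 genes, which encode alpha-1-antitrypsin, are nearly identical and their separate values are uncertain. All 20 complement genes were higher than the mean and 16 higher than each tissue (median 8.12, or 7.72 with dim genes at their bounds). C8b, a part of the membrane attack complex, read 5.88, 6.06 and 6.00 in liver, -8.07, -6.82 and -8.10 in lung, -7.96, -7.54 and -7.70 in kidney and -5.41, -8.03 and -5.07 in WAT, at least 3588-fold above lung and 2732-fold above kidney. Hc, which encodes complement C5, was 10.45 above kidney but 1.34 above lung, where it stood at 4.5 ± 0.11. C1s1, a protease of the classical pathway, had the narrowest difference (3.03 ± 0.30).

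Urea cycle genes divided into a part that liver alone held at a high level and a part shared with kidney. Of 9, 8 were higher than the mean and 4 higher than each tissue. The median difference was 6.99 from lung, 8.78 from WAT and 1.84 from kidney. Otc, which joins ornithine to carbamoyl phosphate, was at least 3794-fold above kidney. Arg1, which releases urea, stood at 7.47, 7.63 and 7.37 in liver, -2.45, -2.06 and -2.63 in lung, -7.66, -7.29 and -7.27 in kidney and -4.52, -1.50 and -2.46 in WAT. Cps1, which makes carbamoyl phosphate, stood at 5.94, 5.94 and 5.64 in liver and at -3.86, -4.24 and -4.20 in kidney, a difference of 9.94 ± 0.38 (adjusted p = 1.1e-08). Ass1, which makes argininosuccinate, stood at 9.53, 9.14 and 8.87 in liver and 8.46, 8.41 and 8.65 in kidney, and Asl, which splits it, at 6.10 ± 0.063 and 4.26 ± 0.083. The liver and kidney values of Ass1 did not overlap but differed by only 0.68 ± 0.30, whereas lung (2.19 ± 0.25) and WAT (0.40 ± 0.65) lay far lower. Slc25a2, an ornithine carrier, was not called (1.49 ± 0.27).

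Amino acid catabolism gave the same division. All 34 genes were higher than the mean (median 8.16), 18 were higher than each tissue, and against kidney 19 were called. Hao1, which makes glyoxylate, and Agxt, which removes it, were well above background on no kidney array and were at least 2480-fold and 6876-fold above kidney. Sds, which deaminates serine, and Hal, which deaminates histidine, were at least 2273-fold and 3516-fold above kidney. Aadat, which acts on kynurenine and aminoadipate, stood at 4.62 ± 0.11 in liver and 5.77 ± 0.10 in kidney, which differ by less than the 4-fold required. Gstz1, the enzyme of maleylacetoacetate, had the narrowest difference from the mean (2.26 ± 0.14).

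Counted over all features, liver shared most with kidney. A feature was counted as shared when liver and the other tissue lay within 2-fold, liver was called above the remaining tissues and the other tissue was at least 4-fold above them. This held for 311 features with kidney (203 with a symbol), 78 with WAT (46) and 51 with lung (34), with no test of the difference between these counts. With the spike-in scaling the counts were 173, 34 and 78, so that the order of lung and WAT depends on the scaling, and with normexp background WAT shared 48 and lung 29. Those with the widest margin over the remaining tissues were Cyp2j5, Rdh16f2 and Abcc2 for kidney, Csrp3, Foxa2 and Foxa1 for lung, and Amy2a5, Fcna and Bche for WAT. Cyp2j5, an epoxygenase, stood at 6.04, 5.95 and 5.79 in liver and 6.70, 6.83 and 6.72 in kidney and was above background in no lung or WAT array. Abcc2, which exports conjugated bilirubin, stood at 4.20 ± 0.37 and 3.42 ± 0.062. Csrp3, a muscle LIM protein, stood at 2.29 ± 0.39 in liver and 1.54 ± 0.88 in lung. Fcna, a ficolin of the lectin pathway, stood at 2.96 ± 0.31 in liver and 2.69 ± 0.93 in WAT, and Bche, butyrylcholinesterase, at 4.31 ± 0.037 and 4.38 ± 0.32. Amy2a5, a pancreatic amylase gene, stood at 3.24, 3.23 and 2.94 in liver and 1.58, 2.98 and 2.79 in WAT.

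**Figure D2:**
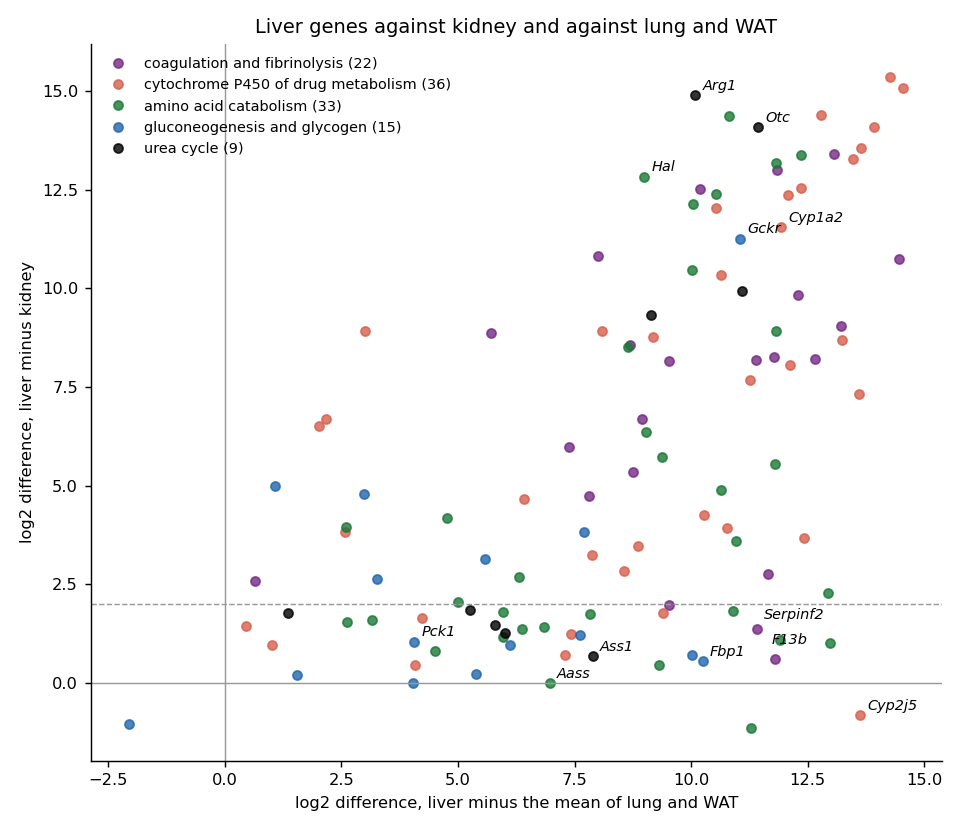
Difference of liver from kidney (vertical axis) against the difference of liver from the mean of lung and WAT (horizontal axis), both in log2 units, for genes of 5 lists, each point a gene and the dashed line the 4-fold limit. Most coagulation genes and cytochromes P450 lie above the dashed line, while Fbp1, Ass1, F13b and Serpinf2 lie below it at the right. Genes dim in a tissue are drawn at their measured values.

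Genes of gluconeogenesis and glycogen gave a median of 1.05 against kidney and of 5.38 and 5.28 against lung and WAT. Of 17, 15 were higher than the mean and 6 higher than each tissue. Gckr, which regulates the first step of glucose use in the hepatocyte, had the widest difference (11.12 ± 0.51), and liver exceeded kidney by 11.26. Fbp1 and G6pc, enzymes of gluconeogenesis, stood at 9.04 ± 0.19 and 6.91 ± 0.51 in liver and at 8.49 ± 0.087 and 6.19 ± 0.32 in kidney. Pck1, phosphoenolpyruvate carboxykinase, stood at 8.95, 8.68 and 9.05 in liver, 7.57, 7.97 and 7.99 in kidney and 6.8, 7.52 and 7.46 in WAT. Its liver arrays exceeded all others, yet only lung (2.72, 2.87 and 1.64) was far away. Pck2, the mitochondrial form, was at -1.72 ± 0.10 and Pcx, which feeds the pathway with oxaloacetate, at 1.1 ± 0.10, and neither was called. Over the mean of its 2 probes Pck2 was called lower (-2.55).

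Isoenzymes of the same reaction often differed in opposite directions. Of 36 genes listed for such pairs, 13 were higher and 11 lower in liver than the mean. The hexokinases Hk1 and Hk2 were lower, at -3.66 ± 0.16 and -2.17 ± 0.29. A second probe of Hk1 read higher in liver (-2.65 ± 0.10) than in lung (-3.96 ± 0.12), kidney (-3.82 ± 0.20) and WAT (-3.90 ± 0.54). The mean of the probes was not called (-1.21). The pyruvate kinase gene Pklr was higher by 4.77 ± 0.51, and Pkm was lower, at -2.94 ± 0.11. Pkm read 1.55, 1.90 and 1.89 in liver against 4.76, 4.80 and 4.94 in lung, 4.43, 4.38 and 4.38 in kidney and 5.13, 4.87 and 4.79 in WAT. Among glucose transporters, Slc2a2 was higher (5.47 ± 0.11) and Slc2a4, the insulin-regulated form of muscle and fat, lower (-6.99 ± 0.28). Gls2, a glutaminase that no kidney array had above background, was at least 1679-fold higher. The arginases differed in opposite directions, with Arg1 at least 2105-fold higher than the mean and Arg2, which no liver array had well above background, at least 9.03-fold lower than lung and 7.22-fold lower than kidney. The fatty acid binding protein Fabp1 was higher by 10.35 ± 0.77, and Fabp3 and Fabp4 were lower, at -6.67 ± 0.34 and -3.34 ± 0.21. The glycogen enzymes Gys2 and Pygl were higher (6.41 ± 0.48 and 3.58 ± 0.11), whereas Gys1 and Pygb were lower (-3.42 ± 0.11 and -3.62 ± 0.25). Mat1a, which makes S-adenosylmethionine in the adult liver, was higher by 8.15 than lung, the next tissue, and its partner Mat2a was not called (-0.76 ± 0.17).

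**Figure D3:**
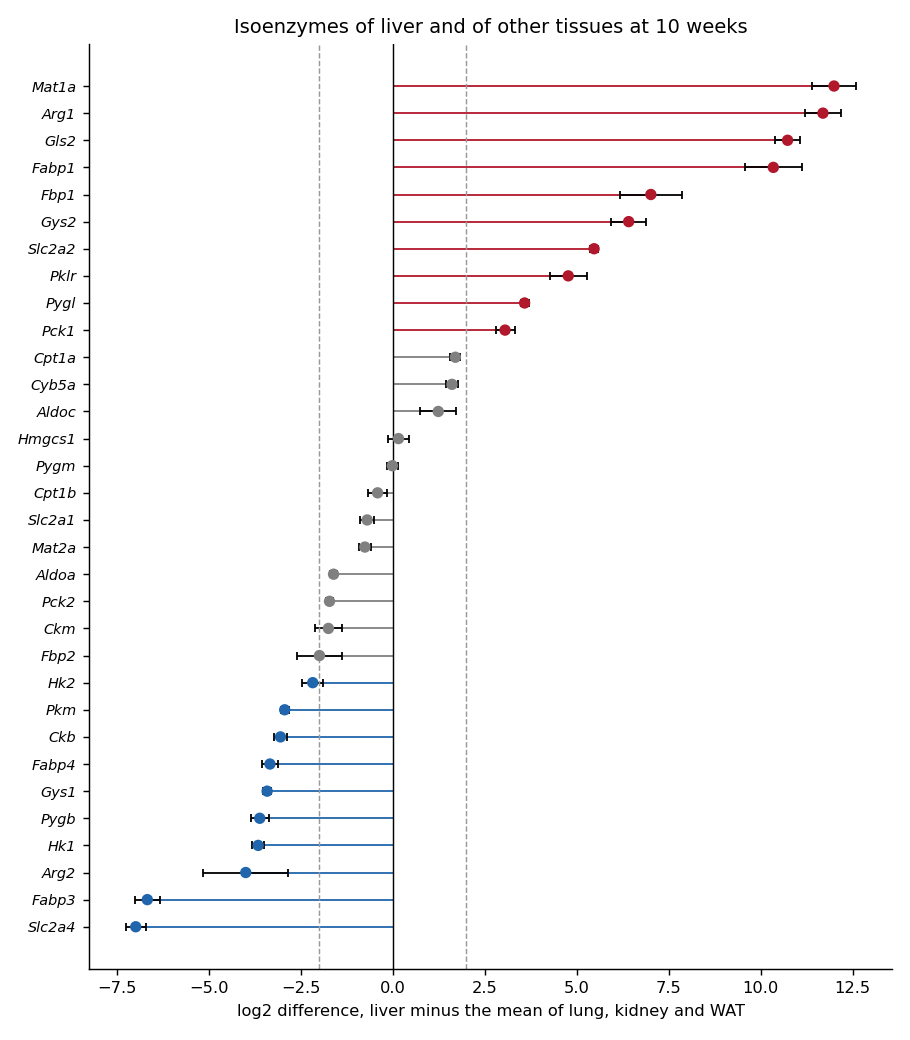
Difference of liver from the mean of lung, kidney and WAT in log2 units for 32 isoenzyme genes, with bars of 1 standard error from limma (n = 3 arrays a tissue), red for called higher, blue for called lower, grey for not called, and dashed lines at 4-fold. Mat1a, Arg1, Gls2 and Fabp1 are at the top and Slc2a4 and Fabp3 at the bottom. Genes dim in a tissue (Arg1, Gls2, Mat1a and Arg2 among those named) are drawn at their measured values.

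Glycolysis genes as a list did not move together. Of 36, 5 were higher and 9 lower than the mean, with a median of -0.014. With the spike-in scaling 14 were lower and the median was -0.74. Ldhb, the lactate dehydrogenase subunit of oxidative tissues, stood at 0.17, 0.10 and 0.10 in liver, 5.83, 5.73 and 5.61 in lung, 8.16, 8.22 and 8.31 in kidney and 4.71, 4.39 and 4.30 in WAT. Its liver arrays lay below all others (adjusted p = 1.61e-09 at most against a tissue). Pfkp and Pfkfb4, a phosphofructokinase and a regulator of it, were also lower than each tissue, at -3.75 and -4.04 against the mean. Pgam1, the phosphoglycerate mutase at the centre of the study, stood at 6.11, 6.26 and 5.83 in liver, 4.18, 4.16 and 4.21 in lung, 6.07, 6.07 and 6.13 in kidney and 5.36, 5.46 and 5.34 in WAT. It was not called against the mean (0.85 ± 0.10), and liver and kidney overlapped. Pgam2, the muscle form, was lower than the mean (-3.55 ± 0.98), at -3.13, -0.42 and -3.23 in liver, 2.10, 1.63 and 0.29 in lung, 4.77, 4.67 and 4.79 in kidney and 0.88, -4.05 and -3.48 in WAT. The kidney arrays stood highest, liver replicate 2 stood above the other livers, and liver and WAT overlapped.

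Bile acid genes were higher in liver at most steps of the pathway. Of 22, 19 were higher and 1 lower than the mean, and 12 were higher than each tissue. Cyp7a1, the rate-limiting enzyme of bile acid synthesis, stood at -0.83, 2.15 and -0.19 in liver, and no other array had it well above background. It was at least 74.1-fold above lung, 56.4-fold above kidney and 64.4-fold above WAT. Cyp8b1, which directs synthesis to cholic acid, stood at 3.72, 3.88 and 2.39 and was at least 573-fold, 436-fold and 498-fold above the same tissues. Slco1b2, an uptake carrier, was at least 6561-fold above the mean, and Abcb11, the export pump of bile salts, differed from it by 11.48 ± 0.33. Slc51a, a subunit of a basolateral exporter, was the lower member: no liver array had it well above background, and kidney was at least 275-fold higher. The 2 probes of Slc10a1, the sodium-dependent bile acid carrier of hepatocytes, disagreed. The brighter one was bright in every tissue, at 8.73 ± 0.075 in liver, 7.61 ± 0.028 in lung, 8.17 ± 0.015 in kidney and 7.78 ± 0.17 in WAT, and was not called (0.88 ± 0.087). The other stood at 6.85, 6.55 and 6.04 in liver, was above background on no lung array and 1 WAT array, and read -3.85 ± 0.39 in kidney. The mean of the 2 probes was called higher (6.64).

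Cytochromes P450 were almost all higher in liver, with Cyp2c54 at least 10582-fold above the mean. Of 36, 34 were higher than the mean, 25 higher than each tissue and none lower (median 8.64, or 8.43 with dim genes at their bounds). Cyp1a2, which metabolizes caffeine, stood at 4.21, 4.23 and 4.28 in liver and was above background nowhere else, at least 1074-fold, 818-fold and 934-fold above lung, kidney and WAT. Cyp2e1, which oxidizes ethanol, stood at 9.72, 9.69 and 9.71 in liver, 2.83, 3.52 and 2.83 in lung, 7.95, 8.06 and 8.15 in kidney and 7.21, 8.18 and 8.33 in WAT, so that the liver arrays were highest but kidney and WAT lay less than 4-fold below. Cyp2f2, which activates naphthalene, stood at 9.31, 9.01 and 8.99 in liver and 8.45, 8.44 and 8.38 in lung, and Cyp2b10, a target of the receptor Nr1i3, at 5.28, 5.38 and 4.62 in liver and 6.72, 6.85 and 6.97 in lung. Por, which passes electrons to all of these enzymes, was not called (0.99 ± 0.28), and neither was Cyp2b13 (0.78 ± 0.26). Close paralogs of the Cyp2a, Cyp2b, Cyp2c, Cyp2d and Cyp3a families can share probes.

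Conjugating enzymes and carboxylesterases were higher in 41 of 46 cases and lower in none, and 22 were higher than each tissue (median 5.42, or 5.16 with dim genes at their bounds). Ces3a, a lipid hydrolase of the endoplasmic reticulum, was at least 10642-fold above the mean. Ugt2b1 was above background in liver alone and at least 2723-fold, 2073-fold and 2367-fold above the others. Ugt3a1 stood at 6.73 ± 0.063 in kidney and 5.41 ± 0.17 in liver, and the acetyltransferase gene Nat8 at 7.27 ± 0.32 and 3.82 ± 0.34.

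Fatty acid oxidation and ketogenesis differed less. Of 22, 14 were higher than the mean and 4 higher than each tissue (median 2.34). With the spike-in scaling 8 were higher than the mean, and after quantile normalization 6. Among the latter were Fabp1, Acaa1b and Acaa2. Acaa2, the thiolase of the mitochondrial pathway, stood at 9.28, 9.35 and 9.18 in liver, 5.77, 5.61 and 5.77 in lung, 6.86, 6.91 and 6.74 in kidney and 5.85, 6.10 and 6.10 in WAT. The liver arrays were 2.43 above those of kidney, the next tissue (limma, adjusted p = 4.48e-08). The carnitine carrier Slc22a5 had the narrowest difference and was not called. Lipogenesis and sterol synthesis were nearer to the other tissues, with 11 of 26 higher, 1 lower and a median of 1.33, which became 7 higher and a median of 0.61 with the spike-in scaling. Elovl3, an elongase of long-chain fatty acids, led with 11.48 ± 0.40. Scd2, the desaturase of many tissues outside the liver, was lower than each tissue: it stood at -0.32, -0.56 and -0.86 in liver, 5.59, 5.61 and 5.47 in lung, 2.86, 2.53 and 2.93 in kidney and 5.94, 4.07 and 4.70 in WAT. Scd1, its paralog, was higher than the mean (2.70 ± 0.25) and level with WAT, at 8.26 ± 0.61 in liver and 8.10 ± 0.10 in WAT.

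Transcription factors of the hepatocyte were in part shared with another tissue. Of 34 genes, 19 were higher than the mean, 9 higher than each tissue and none lower, with a median of 2.40. Creb3l3, which is cleaved from the endoplasmic reticulum membrane in fasting, had the widest difference (10.99 ± 0.39). Onecut1, also named HNF6, stood at 2.36, 2.05 and 3.81 in liver, above background in no other tissue, and was at least 380.0-fold, 289-fold and 330.4-fold above lung, kidney and WAT. Hnf4a stood at 7.29, 7.51 and 7.79 in liver and 6.90, 7.03 and 6.85 in kidney, against -7.81, -2.46 and -5.12 in lung and 0.98, -5.84 and -0.83 in WAT. Liver and kidney did not overlap for Hnf4a but differed by only 0.60 ± 1.62. That standard error pools the spread within all 4 tissues, and the lung and WAT arrays scattered far more than those of liver and kidney. Foxa2 and Foxa1 stood at 3.20 ± 0.70 and 2.38 ± 0.30 in liver and 3.59 ± 0.13 and 3.33 ± 0.28 in lung. Their relative Foxa3 was higher in liver than in each tissue (7.74 ± 0.31 against the mean). Cebpa, which was 4.82 ± 0.12 in liver, stood at 4.79 ± 0.54 in WAT. The nuclear receptors Nr1i2, Nr1i3, Nr5a2 and Nr0b2 were higher than each tissue, Nr1i3 and Nr5a2 by 6.24 and 7.46 against the mean and Nr1i2 and Nr0b2 at least 186-fold and 68.9-fold, whereas the bile acid receptor Nr1h4 was as high in kidney (4.92 ± 0.31) as in liver (4.95 ± 0.28).

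The promoters of 3 liver genes are printed here because they hold letters that binding sites of these factors share. RefSeq gives them on the build GRCm38.p6 as 250 bases before and 50 after the annotated start, 5′ to 3′ along the gene. Capitals mark the letters searched on both strands: CAAAGTCCA for HNF4, TGTTTAC or its variants TATTTAC, further TGTTTGC and lastly TATTTGC for FOXA, TTGCNNAA for CEBP, and TATAAA. In Alb they mark FOXA and CEBP matches, and in Cyp8b1 and Cyp3a11 HNF4, FOXA and TATAAA matches.
Alb (chr5:90460620-90460919, + strand): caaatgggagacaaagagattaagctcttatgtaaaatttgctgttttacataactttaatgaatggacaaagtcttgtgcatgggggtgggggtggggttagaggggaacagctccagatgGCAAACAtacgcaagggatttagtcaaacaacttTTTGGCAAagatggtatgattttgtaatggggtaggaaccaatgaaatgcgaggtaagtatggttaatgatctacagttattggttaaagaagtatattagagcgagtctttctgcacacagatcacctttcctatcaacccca
Cyp8b1 (chr9:121916256-121916555, - strand): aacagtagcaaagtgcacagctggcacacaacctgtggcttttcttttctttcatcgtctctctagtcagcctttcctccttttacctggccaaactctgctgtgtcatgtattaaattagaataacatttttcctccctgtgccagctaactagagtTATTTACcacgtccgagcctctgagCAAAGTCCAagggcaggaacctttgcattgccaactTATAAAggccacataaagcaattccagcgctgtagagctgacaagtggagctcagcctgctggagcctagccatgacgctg
Cyp3a11 (chr5:145879805-145880104, - strand): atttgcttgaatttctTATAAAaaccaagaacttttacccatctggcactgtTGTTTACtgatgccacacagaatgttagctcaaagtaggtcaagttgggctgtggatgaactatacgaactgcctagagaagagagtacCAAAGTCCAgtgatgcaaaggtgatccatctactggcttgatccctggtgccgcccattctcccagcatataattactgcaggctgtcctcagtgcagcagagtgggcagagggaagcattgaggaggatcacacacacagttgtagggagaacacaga
TATAAA ends 26 bases before the start in Cyp8b1. A match is a description of letters and not of a bound site.

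Over 777 promoters of 624 genes higher in liver than in each tissue, the HNF4 letters stood in 16 (2.06%). They stood in 0.475% of all 32851 promoters and in 1 (0.134%) of 747 promoters of genes lower in liver. The shares were 23%, 13.5% and 8.43% for FOXA, 17.8%, 10.8% and 7.9% for CEBP, and 18.4%, 13.6% and 8.97% for TATAAA. Over the 18479 promoters of genes tested the shares were 0.503% for HNF4, 11% for FOXA, 9.7% for CEBP and 10.2% for TATAAA. Over the 166 promoters of 141 genes at least 64-fold above the next tissue, they were 5.42% for HNF4 (9 promoters), 33.1% for FOXA, 28.9% for CEBP and 25.3% for TATAAA. Paralogs such as the Cyp3a genes repeat the same promoter sequence in these counts, so no test was made.

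Hormones and hepatokines (proteins by which liver acts on other organs) were higher than the mean in 23 of 31 cases and higher than each tissue in 18 (median 5.17, or 4.92 with dim genes at their bounds). Hamp, hepcidin, which closes the cellular iron exporter, was at least 2419-fold above the mean. Leap2, the antagonist of the ghrelin receptor, was above background in liver alone and at least 1368-fold, 1042-fold and 1190-fold above lung, kidney and WAT. Igf1, which mediates growth, stood at 7.10, 6.82 and 6.90 in liver and 3.44, 4.33 and 4.02 in WAT, with kidney and lung lower (-1.30 ± 0.22 and -0.19 ± 0.13). Its receptor Igf1r was the lower member, called against each tissue, at -2.03, -2.30 and -1.86 in liver, 1.28, 1.49 and 1.35 in lung, 3.64, 3.54 and 3.54 in kidney and 1.01, 0.21 and 0.16 in WAT. Fgf21, a fasting hormone, stood at -1.03, 0.079 and 0.12 in liver and was at least 46.9-fold above lung and 35.7-fold above kidney.

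Genes known to mark the zones of the lobule were unequally set apart from the other tissues. Of 25 periportal genes 22 were higher and none lower than the mean (median 7.58), and of 25 pericentral genes 12 were higher and 2 lower (median 1.65). The 2 lists were not compared by a test. Among pericentral genes, Gulo, whose enzyme completes vitamin C synthesis, was higher by 9.60 ± 0.13, Slc1a2, a glutamate carrier, by 8.13 ± 0.53 and Lgr5, a receptor that enhances Wnt signals, at least 24.3-fold. Glul, which makes glutamine, was not called, at 6.05, 6.41 and 6.35 in liver and 5.96, 5.91 and 5.94 in WAT. The Wnt targets Nkd1 and Notum were not called either (-1.31 ± 0.17 and 1.11 ± 0.14). Aldh1a2, which makes retinoic acid, and Car2, a carbonic anhydrase, were lower than the mean, at -4.05 ± 0.30 and -2.44 ± 0.70. Cdh1, Ctsc and Hsd17b13 were the periportal genes not called. The probes of Hsd17b13 disagreed, since the second stood at 5.11 ± 0.12 in liver and above background on no lung, kidney or WAT array. Their mean was called higher (7.53).

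Markers of the other liver cells were tested as lists too. Of 14 Kupffer cell markers, 9 were higher than the mean, 6 higher than each tissue and none lower (median 3.29, or 3.23 with dim genes at their bounds). The list is not exclusive, since C6 and Nr1h3 also stand in the lists of hepatocyte complement genes and hepatocyte transcription factors. Clec4f, a lectin of mouse Kupffer cells, stood at 4.58, 4.72 and 4.45 in liver, -8.10, -8.27 and -6.54 in lung, -7.99, -7.57 and -7.73 in kidney and -7.73, -7.57 and -6.35 in WAT. No array outside the liver had it well above background, and liver was at least 1367-fold, 1041-fold and 1188-fold above lung, kidney and WAT. Cd5l and Vsig4, macrophage proteins that dampen inflammation, were higher by 9.13 ± 0.88 and at least 101-fold. Adgre1, which macrophages of many tissues carry, was not called, at 1.92 ± 0.29 in liver and 2.38 ± 0.81 in WAT.

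Of 14 markers of sinusoidal endothelium, 8 were higher and 1 lower than the mean, and 6 were higher than each tissue. Oit3 stood at 2.69, 2.61 and 2.59 in liver and -3.08, -3.58 and -3.61 in lung, and neither kidney nor WAT had it above background, so that liver was at least 268-fold and 306-fold higher. Clec4g, a lectin, was higher by 7.81 ± 0.14, and Gata4, which specifies the sinusoidal endothelium, by 5.20 ± 0.23. Stab2, the receptor for hyaluronan, was higher by 3.76 ± 0.12. Cd209a was lower than each tissue (-4.67 ± 0.50). Of 15 markers of endothelium in general, 4 were lower than the mean by limma and none higher (median -1.69), and with the spike-in scaling 13 were lower. Against lung alone 14 were lower. The lower ones were Cldn5, Emcn, Esam and Sox17, of which only Emcn was lower than each tissue, and lung was the highest tissue for all but Emcn.

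Of 17 stellate cell markers, 9 were higher and 2 lower, and 7 were higher than each tissue (median 2.73, or 2.17 with dim genes at their bounds). Colec10, a collectin, stood at 3.12, 3.07 and 2.68 in liver and -5.35, -5.19 and -4.84 in lung, and was at least 336-fold above kidney and 384-fold above WAT. Lhx2, a transcription factor of these cells, was above background in liver alone, and liver was at least 41.7-fold, 31.8-fold and 36.3-fold above the others. Gdf2, which encodes BMP9, was at least 84.7-fold above the mean, and Hand2 at least 12.1-fold. Lrat, which esterifies retinol, was at least 4.49-fold above the mean and stood at -0.36, -1.24 and -0.73 in liver and 0.087, -0.62 and -0.14 in lung, which overlapped. Des and Pdgfrb, which muscle and pericytes also carry, were lower (-2.26 ± 0.13 and -2.11 ± 0.19). Of 11 cholangiocyte markers 1 was higher, the anion exchanger Slc4a2 (2.07 ± 0.12), and 6 were lower, with the keratin Krt7 the lowest (-5.49 ± 0.23). The call of Slc4a2 was lost with the spike-in scaling, quantile normalization and normexp background, and without any 1 of the livers 3 of these markers were lower. Lung and kidney are themselves rich in epithelia that carry these genes.

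**Figure D4:**
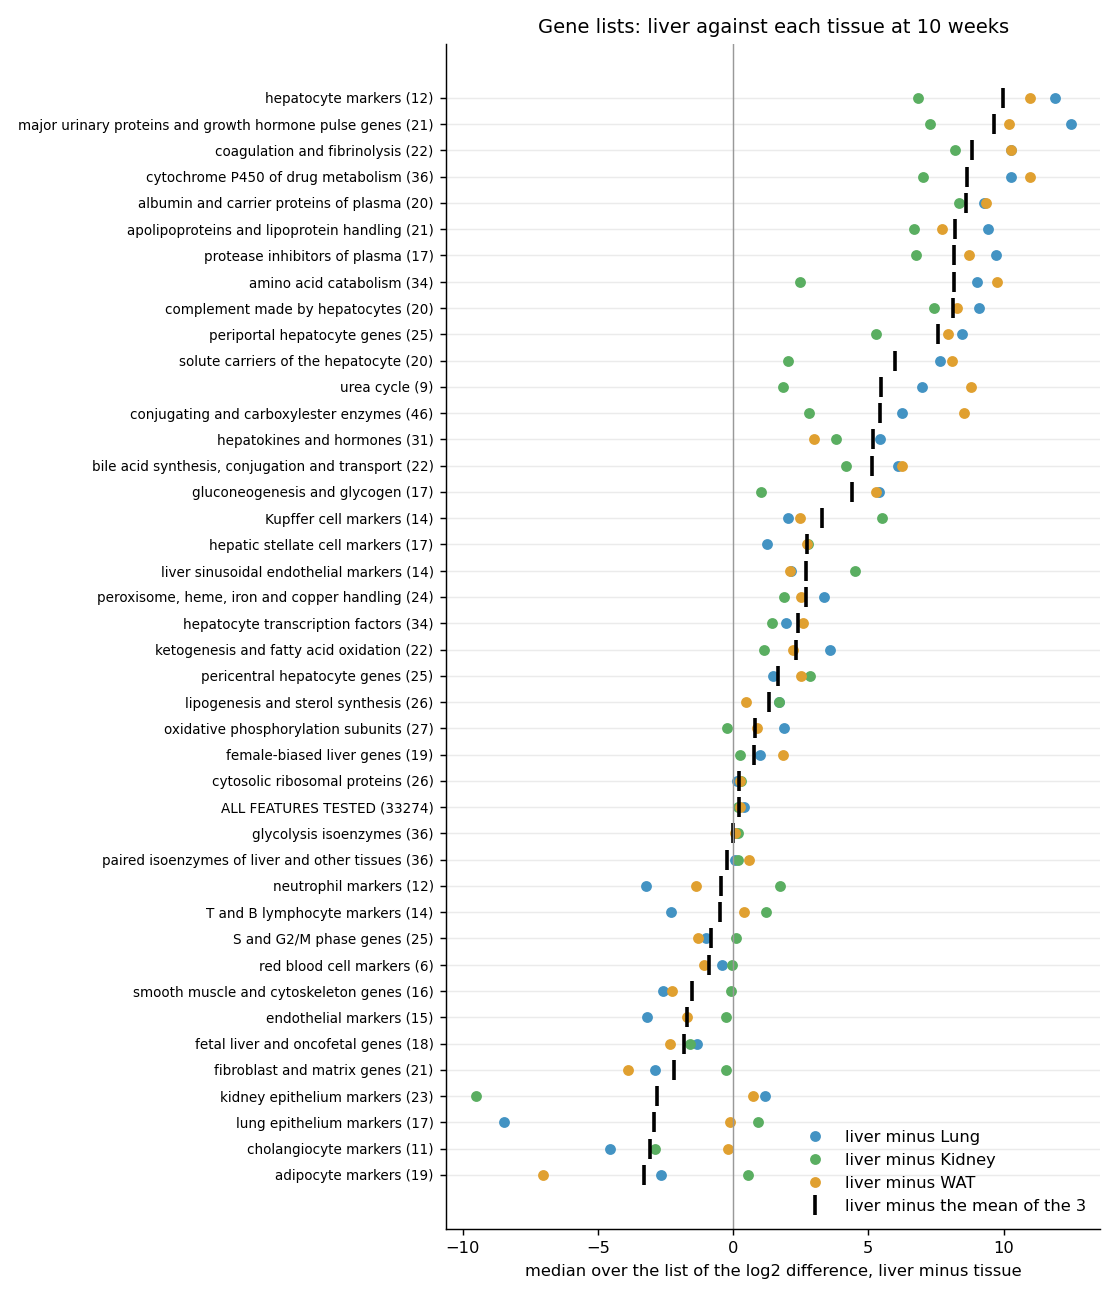
Median log2 difference of liver from lung, kidney and WAT (points) and from their mean (black ticks) for each gene list, with the number of genes tested in brackets and all 33274 features as a reference. Lists of secreted proteins and P450 lie at the top. Amino acid, urea and glucose genes differ less from kidney (medians of 2.49, 1.84 and 1.05) than from lung and WAT. The markers of the other tissues lie at the bottom, with the cholangiocyte markers of liver among them.

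Among genes lower in liver than in each of the other tissues, the 10 with the widest gap were Car4, Rgcc, Arhgef28, Gpx3, Xpnpep2, Cldn10, Dpep1, Slc1a1, Tubb2b and Mcf2l. Car4, a carbonic anhydrase of the cell surface, stood at -6.56, -6.52 and -6.67 in liver, 2.79, 2.81 and 3.12 in lung, 3.29, 3.43 and 3.41 in kidney and 3.10, 1.39 and 1.31 in WAT. Gpx3, the glutathione peroxidase of plasma, stood at -0.74, -0.95 and -0.66 in liver, 6.17, 6.11 and 6.22 in lung, 9.32, 9.44 and 9.53 in kidney and 7.54, 6.59 and 6.17 in WAT. For each of the pair every liver array was below all 9 others. Dpep1, a dipeptidase, differed from the mean by -6.81 ± 0.33. Slc1a1, a glutamate carrier, and Tubb2b, a tubulin, were above background on no liver array and at least 73-fold and 39.8-fold lower than the mean. Of all 980 lower features, 361 were well above background on no liver array, so that only a bound on their difference is known.

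The markers of the cells that define the other tissues had no member called higher in liver than the mean by limma (2, 0 and 1 for lung, kidney and fat at an unadjusted p under 0.05). Of all 33274 features 2573 were called higher, and 14478 were higher at that unadjusted p. Of 17 lung epithelial markers 10 were lower, of 23 kidney epithelial markers 15, and of 19 adipocyte markers 12. Napsa of lung, Lrp2 and Podxl of kidney and Slc2a4 of fat were lower than each tissue. Well above background on no liver array were 2 of the lung markers (Sftpc and Sftpb), 9 of the kidney markers (Umod and Kap among them) and 3 of the adipocyte markers (Adipoq among them). Sftpd (-1.84, -1.33 and -1.38 in liver against 7.92, 7.89 and 8.10 in lung) and Lep (0.32, 0.082 and -0.072 in liver against -0.44, -0.52 and 0.16 in WAT) were above background in liver. Against the tissue they mark, the medians were -8.47, -9.50 and -7.04. Matrix genes were mostly lower, 14 of 21, with a median of -2.18. Col1a1 and Col1a2, the chains of type I collagen, differed by -3.38 ± 0.29 and -3.20 ± 0.19. Fn1, the fibronectin that hepatocytes release into plasma, was the only higher member (3.93 ± 0.29), at 7.20 ± 0.28 in liver and 5.27 ± 0.89 in WAT. Among 16 genes of smooth muscle and the cytoskeleton 8 were lower, with Cnn1 the lowest (-6.11 ± 0.88), and the keratin Krt18 of hepatocytes was higher (2.64 ± 0.67, a call lost with the spike-in scaling and quantile normalization), while Krt8, its partner, was not called (1.91 ± 0.54).

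Against the mean, 1 of 14 lymphocyte markers was higher and 1 lower, 2 of 12 neutrophil markers were lower and 1 of 6 red blood cell markers was higher. Over all features 7.73% were called higher and 8.69% lower, and counts from lists this small are not set apart from those shares. Against lung, 9 of 14 lymphocyte markers and 8 of 12 neutrophil markers were lower in liver (medians -2.31 and -3.21), beside 12.8% of all features. Among 14 lymphocyte markers, Cd4 was the only higher member, at 5.55, 5.79 and 5.26 in liver, 2.06, 2.06 and 2.08 in lung, 2.49, 2.22 and 2.45 in kidney and 1.74, 1.88 and 1.80 in WAT, and it was called against each tissue (adjusted p at most 3.54e-08). The T cell markers Cd3e, Cd3d, Cd3g and Lck were not called, and Cd2 was lower (-2.24 ± 0.38). Among 12 neutrophil markers Ltf and Mmp9 were lower, Ltf at -4.79 ± 1.61 and Mmp9, dim on every liver array, at least 3.65-fold, and without liver replicate 2 neither was called. The neutrophil markers of WAT replicate 3 were the highest of that tissue, and their part in these values was not tested. Alas2, the erythroid enzyme of heme synthesis, was higher than each tissue (5.06 ± 0.94), while the haemoglobin genes Hba-a1, Hba-a2 and Hbb-bt were not called, at -0.97, -0.96 and -0.89.

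Ribosomal, respiratory and cell cycle lists had no member called higher than the mean. Over all features 7.73% were called higher than the mean and 8.69% lower. At an unadjusted p under 0.05, 14478 of all 33274 features were higher and 9307 lower. The 2 lower respiratory and 2 lower cell cycle genes given next lie near the share over all features. None of 26 ribosomal protein genes was called in limma's fit against the mean, although 13 were higher and none lower at an unadjusted p under 0.05, and their median of 0.24 was close to that of all features. That median turned to -0.49 with the spike-in scaling and to -0.70 after quantile normalization. Of 27 subunits of oxidative phosphorylation none was called higher (24 at an unadjusted p under 0.05) and 2 were lower, Cox8b and Cox6a2, forms of muscle and brown fat. The median was 0.82, from 1.90 against lung to -0.24 against kidney. Of 25 genes used in S phase and mitosis none was called higher (4 at an unadjusted p under 0.05) and 2 were lower (15 at an unadjusted p under 0.05, median -0.81, or -0.54 with dim genes at their bounds). The lower count was 8 with the spike-in scaling, 4 after quantile normalization and 0 with normexp background. The called genes were Cenpe (-2.34 ± 0.17) and Foxm1, the proliferation factor the study followed into aged tissues. Foxm1 stood at -5.51, -4.87 and -4.56 in liver, -2.75, -2.39 and -2.52 in lung, -3.71, -3.24 and -3.42 in kidney and -1.66, -1.76 and -1.19 in WAT. It was dim on every liver array, which lay at least 3.96-fold below lung, 2.11-fold below kidney and 8.02-fold below WAT. Over the mean of its 2 probes Foxm1 was not called (-1.11). Chek1, the kinase that the study sets beside Pgam1, was not tested because it did not pass the filter on dim probes.

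Genes listed for fetal liver were more often lower than higher. The list also holds genes that the other adult tissues express, and against WAT alone 10 were lower. Of 18, 1 was higher and 9 lower than the mean (median -1.82, or -1.51 with dim genes at their bounds). Gpc3 and Plagl1, which fall silent after birth, were lower than each tissue, at -4.76 ± 0.28 and -4.17 ± 0.21. Afp, the albumin of the fetus, was not called and overlapped with kidney, at -1.99, -1.02 and -1.81 in liver and -1.08, -1.22 and -1.22 in kidney. The higher member, Lin28b, stood at -2.80, -2.87 and -3.72 in liver and -5.24, -5.19 and -5.18 in lung, and its call was lost with the spike-in scaling and normexp background.

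Genes that pulses of growth hormone raise in male liver were among the widest differences. Of 21 such genes, 19 were higher than the mean and 16 higher than each tissue, with a median of 9.63. Mup20, which encodes the pheromone darcin, stood at 10.16, 9.95 and 10.05 in liver, -6.22, -2.08 and -4.69 in lung, -4.66, -3.13 and -3.59 in kidney and -1.80, -2.11 and 0.74 in WAT. The Mup genes are nearly identical and their probes cannot be told apart with certainty. Hsd3b5, a steroid reductase of male liver, stood at 5.91, 6.13 and 5.35 in liver, and Elovl3 at 6.52, 6.61 and 4.85. Both stood far lower in the other tissues, at -5.17 in kidney and -5.21 in lung, the highest of them. Bcl6 and Selenbp2 were not called. Of 19 genes that female livers express more, 8 were higher and 5 lower than the mean. Cyp3a16 was at least 5947-fold higher and Cyp3a41a higher by 12.43 ± 0.41, and their probes may read other Cyp3a transcripts. Prom1, Fmo2, Hao2, Ntrk2 and Atp6v0d2 were the lower members, though Ntrk2 was not called over the mean of its 2 probes (-1.21).

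The arrays of 90W mice, on the same slides, gave the same comparison in other samples. Of the 1307 features higher than each tissue at 10W, 866 (66.3%) were called so at 90W, and of the 980 lower ones 452 (46.1%). Against the mean, 1836 of 2573 (71.4%) and 1790 of 2893 (61.9%) were called again, and 1 and 2 were called the opposite way. Among the growth hormone pulse genes 17 of 21 were higher than the mean at 90W. The genes named next were chosen after their values at both ages were seen. Elovl3 differed from the mean by 11.48 at 10W and 4.60 at 90W, Hsd3b5 by 11.97 and 5.66, and Cyp4a12b by 6.52 and 2.04. Hsd3b5 read -2.73, -5.55 and 2.76 in the livers at 90W. Cyp2b13, a female-biased gene, differed by 0.78 and 5.99. Cyp2b13 read -3.48, -3.74 and -4.04 in the livers at 10W and 1.60, -0.81 and -0.19 at 90W, which did not overlap. The differences between the ages were not tested here.

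**Figure D5:**
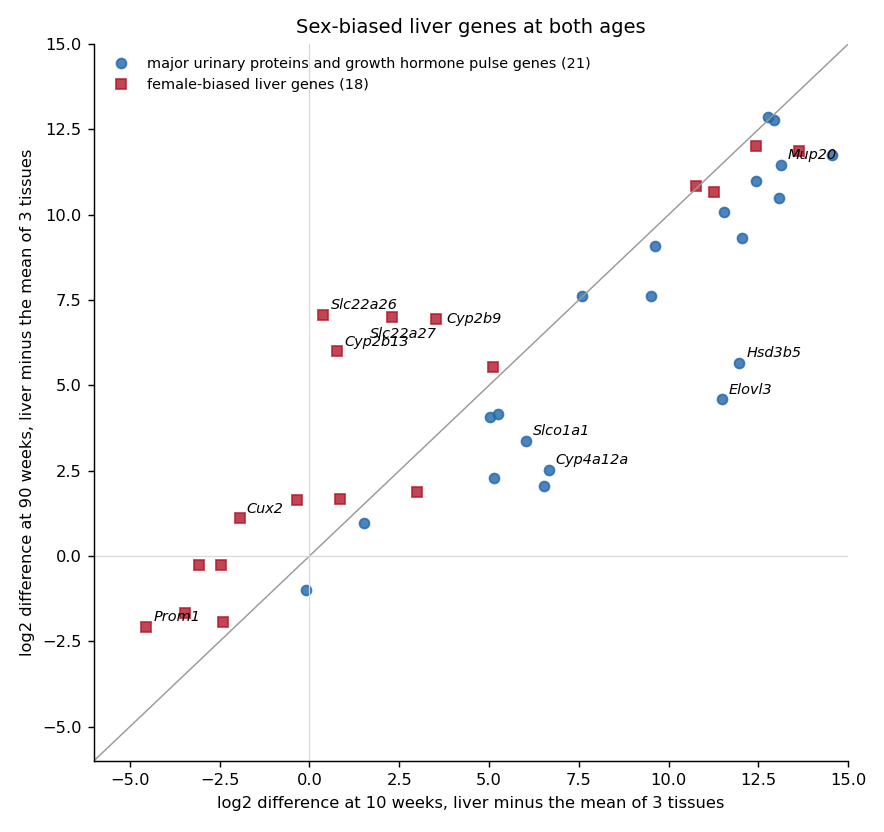
Difference of liver from the mean of lung, kidney and WAT at 90 weeks (vertical axis) against that at 10 weeks (horizontal axis), both in log2 units, for growth hormone pulse genes (blue circles) and female-biased genes (red squares), with a line of equal values. Hsd3b5, Elovl3 and Cyp4a12b lie well below the line, and Cyp2b13 and Cyp2b9 well above it. Genes dim in a tissue are drawn at their measured values, so only bounds are known for them.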

How the data were processed

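Total RNA from bead-crushed liver, lung, kidney and WAT of male C57BL/6J mice was extracted with RNeasy columns, labelled with Cy3 by the Agilent Quick Amp method and hybridized, per the labels, to 1-colour arrays. The authors deposited the scanner output of each array, that is, background-subtracted signal intensity per spot on a linear scale from Feature Extraction 11.0.1.1, not normalized between arrays; the file headers name a mouse design on the build mm9, whereas the study's methods name an array kit for human genes. Here, control spots were left out, as were flagged spots among the rest (40 to 132 on an array at 10 weeks). The log2 values of a probe's spots were averaged, and each array was set to its 75th percentile. Of 56605 probes, 32994 (58.3%) matched 22911 RefSeq symbols through their accessions (table of GRCm38.p6, used for names and promoters only). Probes were kept when 3 or more of 12 arrays had them well above background, and the brightest stood for a gene, which left 33274 features, 18818 with a symbol. Group means were fitted with limma 3.58.1 in R 4.3.3 (lmFit, eBayes) to the 12 arrays at 10 weeks, with liver minus the mean of the other tissues and minus each, and Benjamini-Hochberg adjustment over all features. A call needed adjusted p under 0.05 and 4-fold, and "each" needed the call in all 3 pairs. The fit was tested on simulated data. A tissue in which no array had a gene well above background gave only a bound, the brighter mean over the mean of, per array, the higher of the measured signal and the lowest signal above background ("at least N-fold"). The number of arrays limits the precision.

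The genes named were the 15 higher and 10 lower ones with the widest gap to the next tissue, the ends and exceptions of each list, members of the isoenzyme, zonation and cell marker lists, Pgam1, Chek1 and Foxm1, and the 3 genes most shared with each tissue; 3 promoters were picked for the letters they hold. Some genes and a motif are not reported here. The members and lists were chosen with earlier results of these data known. Replicate numbers were not taken as pairs, since the labels do not say that a number marks 1 mouse. Deviations of same-numbered arrays correlated with those of liver at -0.03 to 0.09, and of differently numbered ones at -0.11 to 0.05. The same-numbered range lies somewhat higher, and a pairing was not tested. Alternatives were normexp background (offset 16), quantile normalization, median centring, spike-in scaling, other filters and probe choices, a replicate block, all 24 arrays, a trended prior, other fold limits, the methods' unpaired t-test, each array left out in turn and, chosen after seeing the data, WAT replicate 2 alone. Slide as a block could not be fitted, since each slide held 1 tissue.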

Additional observations from a re-analysis of the deposited data

Results flagged for a closer look

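Zbtb8b, a zinc finger gene, read lower in liver than in each tissue at 10 weeks and higher at 90 weeks. Its 3 livers read -6.88, -6.79 and -6.92 at 10 weeks, with no liver array well above background, and lay below lung (-4.21, -3.53 and -4.16), kidney (-3.04, -3.49 and -3.74) and WAT (-3.05, -4.25 and -3.89). At 90 weeks the 3 livers read -2.63, -1.84 and -1.48 and lay above all 9 other arrays. The difference of liver from the mean of the other tissues measured -3.16 at 10 weeks and 2.57 at 90 weeks. Since the probe was not above background in young liver, only a bound is known there: liver lay at least 1.5-fold below lung, 2.19-fold below kidney and 1.77-fold below WAT, less than the 4-fold of a call, and with normexp background the gene was not called. The gene stands out because all arrays of 1 age lay on one side of the other tissues and all arrays of the other age on the opposite side; the difference between the ages was not tested.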

How the results depend on the processing

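Over 10 counts of called features (higher and lower, against the mean, against lung, kidney and WAT, and against each), 236 of 272 values under an alternative lay within 1.5 times the reported one, and 36 did not. With the spike-in scaling the counts were 1645 higher and 4981 lower against the mean, 1559 and 8898 against lung, and 866 and 1596 against each tissue. With normexp background the lower counts were 1466 against the mean, 2565 against lung, 1515 against kidney, 1782 against WAT and 389 against each tissue. The cause was not tested. Of the features called against each tissue, the spike-in scaling kept 866 of the 1307 higher (66.3%) and all 980 lower ones, and normexp background 1003 (76.7%) and 384 (39.2%). With features that have a symbol only, which tests fewer, the higher counts were 1618 (mean), 2204 (lung), 1539 (kidney), 1945 (WAT) and 804 (each). At least 2-fold gave 7393 higher and 5813 lower (mean), 10243 and 6877 (lung), 5960 and 5168 (kidney), 8964 and 6183 (WAT), and 3171 and 2284 (each); at least 16-fold gave 883 and 665, 1210 and 1427, 817 and 945, 983 and 884, and 445 and 131. Leaving out each array in turn gave 1284 to 1337 higher and 943 to 1044 lower against each tissue, and 2504 to 2654 and 2797 to 2964 against the mean. With the replicate number as a replicate block, the counts were 1309 and 978 against each tissue and 2569 and 2893 against the mean. The numbers are shared by label only. Deviations of liver and the other tissues correlated at -0.03 to 0.09 for same-numbered arrays and at -0.11 to 0.05 for differently numbered ones. For the lists, 1930 of 1968 counts lay within 1.5 times, and for the features shared with 1 tissue 65 of 72; the 7 others were those given with the spike-in scaling and normexp background, and the counts over features with a symbol.

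Of genes named, 5037 of 5106 differences from the mean kept their direction and call, 45 lost the call, 10 gained it and 14 changed sign. The sign changed for genes that were not called only: with normexp background for Sftpd (-0.79), with quantile normalization for Shbg (-0.13), Slc10a1 (-0.53) and Slc22a5 (-0.047) and with spike-in scaling for Cdh1 (-0.26), Ctsc (-0.24), Shbg (-0.33) and Slc22a5 (-0.50). Without 1 array each, the differences ran from -0.61 to 0.59 for Bcl6, from -0.25 to 1.34 for Cdh1, from -0.46 to 0.04 for Pltp and from -0.10 to 0.57 for Slc22a5. The cause was not tested. Signal over background limits genes dim in liver or elsewhere to bounds, 361 of the 980 lower features among them.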

Other observations

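Carriers of the hepatocyte membrane and its organelles were mostly higher in liver. Of 20 solute carriers, 18 were higher than the mean of the other tissues, 9 were higher than each and none was lower (median 5.99, or 5.69 with genes that are dim elsewhere at their bounds). Slc30a10, which exports manganese, was above background in liver alone and at least 117-fold, 89-fold and 102-fold above lung, kidney and WAT. Slc25a47, a carrier of the hepatocyte mitochondrion, stood at 7.92, 8.54 and 8.35 in liver and 0.59, -0.40 and -0.20 in WAT, a difference of 8.28 ± 0.26 (limma, adjusted p = 3.01e-09). Slc22a7 and Slc27a2, an organic anion carrier and a long-chain acyl-CoA synthetase, stood at 6.03 ± 0.20 and 8.30 ± 0.083 in kidney and at 3.51 ± 0.23 and 7.73 ± 0.087 in liver.

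Iron, heme and peroxisome genes were more divided. Of 24, 14 were higher and 1 lower than the mean (median 2.71). Tfr2 and Hjv, which sense iron upstream of hepcidin, were higher by 9.94 ± 0.16 and at least 74-fold, and Uox, urate oxidase, by 11.69 ± 0.90. Dao, the oxidase of D-amino acids, was the lower member: no liver array had it well above background, and kidney was at least 2972-fold higher.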
